A study of Mus musculus with 4 samples.

Results

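The data described here are the values of 8 enzyme genes of the muscle energy supply on 4 arrays: Ckm, Ckmt2, Pygm, Eno3, Pgam2, Pfkm, Phka1 and Phkg1. They were chosen by name, as the muscle isoforms of the creatine kinases and of enzymes of glycogen breakdown and glycolysis. The choice was made with earlier results of these data known, so their counts beside shares over all genes are descriptions. All 8 of 8 had 1 transcript cluster of their own, among 14860 genes with such a cluster. The cells were C2C12, mouse myoblasts grown as a line, which multiply at high serum and form myotubes when serum is withdrawn. All 4 cultures were siRNA-treated C2C12 cells, and the groups were a control siRNA in proliferating cells, siMUNC in proliferating cells, the control siRNA in differentiating cells and siMUNC in differentiating cells, with 1 array each. siMUNC is directed against MUNC, a long noncoding RNA transcribed near Myod1. Growth medium held 10% fetal bovine serum. Differentiating cells were changed to 2% horse serum at 80% confluence and were collected 3 days later. The labels name 1 cell line and no further cultures, so no value below has a replicate and none has a p-value, and precision is limited by the number of arrays. MUNC itself was not analysed here, so the knockdown rests on the labels.

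Creatine kinase transfers a phosphate between ATP and creatine and so buffers ATP during contraction, with a cytosolic and a mitochondrial form in muscle. Glycogen phosphorylase frees glucose phosphate from glycogen after phosphorylase kinase has switched it on, and phosphofructokinase, phosphoglycerate mutase and enolase are steps of the glycolysis that follows. Many of these enzymes have a muscle isoform beside isoforms of brain, liver or other tissues, and the change from one to the other is a known part of muscle development. Promoters of muscle genes often hold E-boxes, the sites of MyoD and myogenin, and AT-rich sites of MEF2 factors.

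The promoters of Ckm, Pygm and Pgam2 are shown because these 3 genes differed most between the groups and have 1 annotated start each. Each line is the 250 bases before the start, 5′ to 3′ on the gene's strand, from RefSeq (GRCm38.p6), with E-box letters (CANNTG) and MEF2 motif matches in capitals. The windows lie at chr7:19410844-19411093 on the plus strand for Ckm, chr19:6384158-6384407 on the plus strand for Pygm and chr11:5803797-5804046 on the minus strand for Pgam2.
Ckm: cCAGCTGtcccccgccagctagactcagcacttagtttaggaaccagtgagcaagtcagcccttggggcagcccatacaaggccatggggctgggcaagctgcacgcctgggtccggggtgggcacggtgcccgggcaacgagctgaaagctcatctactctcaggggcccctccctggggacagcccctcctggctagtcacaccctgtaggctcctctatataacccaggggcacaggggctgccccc
Pygm: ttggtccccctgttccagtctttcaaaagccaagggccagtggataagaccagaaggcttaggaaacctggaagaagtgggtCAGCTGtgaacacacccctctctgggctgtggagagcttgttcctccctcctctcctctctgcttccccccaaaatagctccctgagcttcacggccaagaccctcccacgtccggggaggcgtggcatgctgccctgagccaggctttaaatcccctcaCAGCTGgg
Pgam2: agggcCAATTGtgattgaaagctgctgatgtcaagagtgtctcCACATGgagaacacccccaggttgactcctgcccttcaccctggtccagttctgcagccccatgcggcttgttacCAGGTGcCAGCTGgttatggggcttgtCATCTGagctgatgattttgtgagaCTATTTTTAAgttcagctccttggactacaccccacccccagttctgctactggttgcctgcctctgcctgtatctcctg
Both strands were searched. Pgam2 held 5 E-boxes and the single MEF2 match of all member windows, CTATTTTTAA, which begins 80 bases before the start. Pygm held 2 E-boxes, both with the letters CAGCTG, 168 and 8 bases before the start. Ckm held 1, also CAGCTG, at 249 bases. RefSeq gave 11 windows for the 8 genes, because Pfkm had 4 starts. An E-box was found in 10 of the 11, against 66.2% of 32817 promoter windows of the same length. CAGCTG, which is contained in the E-box pattern, was found in 5 of the 11 against 13.0%, namely in the windows of Ckm, Ckmt2, Pygm, Pgam2 and Phka1. The MEF2 motif was in 1 of 11 against 2.92%. These matches describe letters, and binding was not measured.

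Values are on a log2 scale, as the authors deposited them. A gene was counted as expressed in a comparison when its higher value reached 8.50, the median of all gene means. A difference was counted when it reached 2-fold, a log2 difference of 1. Because clusters differ in their probes, differences are taken between arrays and not between genes. The expressed level and the sums over marker lists do set different clusters side by side, and bright clusters weigh most in a sum. Where 4 values of a gene follow each other, the stated order is proliferating cells with the control siRNA, proliferating cells with siMUNC, differentiating cells with the control siRNA and differentiating cells with siMUNC.

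Markers of several cell types were read next. They cannot show which line the cells are, so C2C12 rests on the labels. Of 7 myoblast line markers (Myod1, Myf5, Des, Cdh15, Ncam1, Myog and Acta1), 6 read at or above 8.50 on each proliferating array and 7 on each differentiating array. Of all 14860 genes, 7564 reached that level on at least 1 proliferating array and 7635 on at least 1 differentiating array. The same level was reached by 4 of 8 fibroblast markers on each proliferating array, and by 7 and 5 in control and siMUNC differentiating cells. Of 6 macrophage markers it was reached by 2 at most, Cd68 (8.77 in control proliferating cells) and Cd14 (8.67), while Ptprc (4.98 to 5.15) and Adgre1 (4.88 to 5.15) stayed low on all 4 arrays. In proliferating cells the summed linear level of the myoblast line list was 22690 with the control siRNA and 22197 with siMUNC. In differentiating cells it was 47533 and 33767. Of the 7 markers, 5 were below 0 there with siMUNC against the control siRNA, and 2 above, Myf5 (0.62) and Cdh15 (0.12). The sum of the fibroblast list was 11177 and 9700 in proliferating cells, and 24806 and 21160 in differentiating cells. That of the 8 reserve and satellite cell markers ran from 9272 to 9919 on the other 3 arrays and was 12602 in siMUNC differentiating cells, where Cd34 read 12.38 against 11.30 in control cells. With siMUNC in differentiating cells 4 of the 8 reserve and satellite cell markers were above 0 against control cells and 4 below, among them Pax7 at -0.42, and the list's median was -0.02. The macrophage sum ran from 697 to 1030. The part of these markers in the results below was not tested. In bulk RNA, fewer cells that express a gene and less RNA per cell cannot be told apart.

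The first comparison asks how these enzymes differ between differentiating and proliferating control cells. Of the 8 genes, 4 were past 2-fold higher in differentiating cells, Pygm, Ckm, Pgam2 and Pfkm, and none was past 2-fold lower. Past 2-fold higher were 5.21% of expressed genes and 3.53% of all 14860 genes. All 8 differences were above 0, though the dim Phkg1 turned to -0.042 under cyclic loess, with a median of 1.43 on the log2 scale, against -0.09 over the 7856 expressed genes. The gene values ran from 0.03 for Phkg1 to 4.41 for Pygm.

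The creatine kinases come first in role. Ckm, the cytosolic muscle creatine kinase, read 7.91 in proliferating cells with the control siRNA and 8.16 with siMUNC, and 11.55 and 9.92 in differentiating cells with the control siRNA and siMUNC. Both proliferating values lay below the level counted as expressed, and the control differentiating array was the highest. Ckm was thus 12.5-fold higher in differentiating than in proliferating control cells, with 41 of 7856 expressed genes, itself included, at least as much higher. Ckmt2, the sarcomeric mitochondrial creatine kinase, read 5.65, 5.50, 6.61 and 5.95 in the stated order. It was dim on all 4 arrays. Its order across the arrays was nearly that of Ckm, and its difference of 0.97 in control cells stopped just short of 2-fold.

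The member genes of glycogen breakdown gave 1 large and 2 small differences. Pygm, the muscle glycogen phosphorylase, read 7.86 and 7.79 in control and siMUNC cells during proliferation, and 12.27 and 10.00 after the medium change. It was dim in both proliferating cultures and 21.2-fold higher in differentiating control cells, the 22nd highest of the 7856 expressed genes. Phka1 encodes the muscle alpha subunit of phosphorylase kinase, a regulatory subunit. It read 9.86, 9.64, 10.24 and 9.87 in the stated order, and was 1.30-fold higher in differentiating control cells. Phkg1, the muscle catalytic gamma subunit, read 5.49, 5.49, 5.51 and 5.71 in the stated order. It was dim on every array, so its differences are not interpretable as changes of expression. Of these genes, a difference past 2-fold was therefore seen for Pygm and not for Phka1, while Phkg1 was too dim to read. Kinase subunits outside the 8 genes did pass 2-fold higher in differentiating control cells, namely Phkb (2.08-fold) and Phka2 (2.09-fold). Phkg2, another gamma subunit and not dim, was 1.17-fold lower there.

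Among the glycolytic members the differences were also uneven. Pgam2, the muscle phosphoglycerate mutase, read 6.83 and 6.96 in control and siMUNC cells during proliferation, and 10.30 and 8.36 after the medium change. Only the control differentiating array reached the expressed level, and the gene was 11.1-fold higher there than in proliferating control cells. Pfkm, the muscle phosphofructokinase, which catalyses the committed step of glycolysis, read 9.71, 9.71, 11.60 and 10.52 in the stated order. It was expressed in every culture and was 3.70-fold higher in differentiating control cells. Eno3, the muscle enolase, read 13.30, 13.44, 13.53 and 13.28 in the stated order, within 0.25 on the log2 scale over all 4 arrays. This lies near the upper end of the table, whose highest value is 14.32. Enolase isoforms resemble each other in sequence, and whether this cluster also reads another enolase was not tested.

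**Figure D1:**
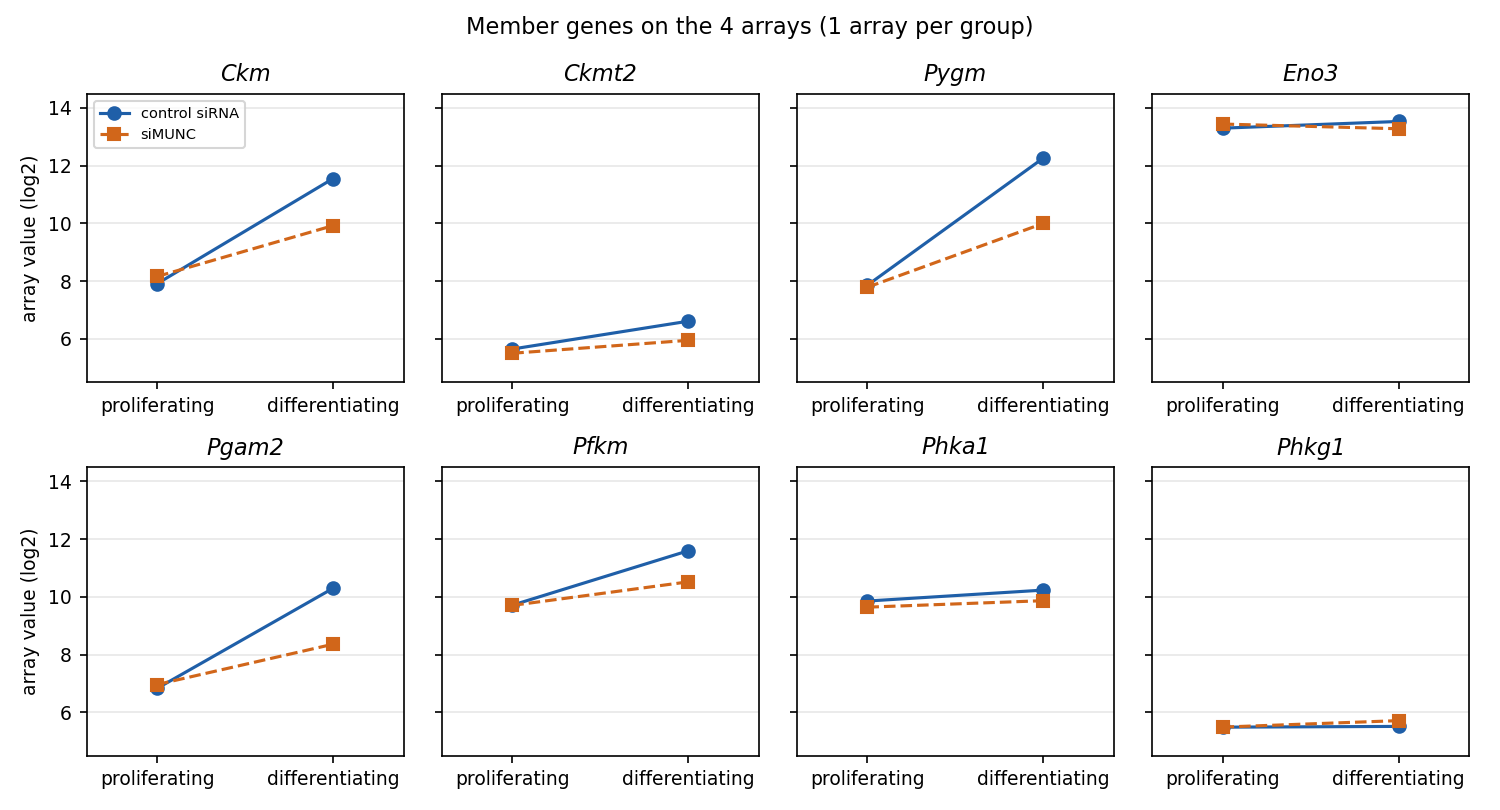
Array value (log2) of each of the 8 genes in proliferating and differentiating cells, 1 panel per gene, 1 point per array, with circles for the control siRNA and squares for siMUNC. Ckm, Pygm, Pgam2 and Pfkm start at nearly equal values and separate in differentiating cells, while Eno3, Phka1 and Phkg1 stay nearly level.

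In siMUNC cells the question is how these enzymes differ on differentiation when MUNC is targeted. Past 2-fold higher were 3 of 8, Pygm (4.64-fold), Ckm (3.39-fold) and Pgam2 (2.63-fold), the last from values below the expressed level. The share past 2-fold higher was 2.92% of the 7672 expressed genes and 2.01% of all genes. Pfkm was 1.76-fold higher, Ckmt2 1.36-fold, and Phka1 and Phkg1 1.17-fold each, while Eno3 was 1.12-fold lower. The median over the 8 genes was 0.63, against -0.05 over expressed genes.

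The 2 comparisons use separate arrays, and Pygm, Ckm, Pgam2, Pfkm and Ckmt2 came in this order in both. In siMUNC cells the log2 difference of Pygm was 50.2% of that in control cells, and it was 48.4% for Ckm, 43.3% for Pfkm and 40.3% for Pgam2. The 4 genes, those past 2-fold in control cells, lay between 40.3% and 50.2% although their control differences ran from 1.89 to 4.41. How often 4 such genes lie this close was not counted. Ckm, Pygm and Pgam2 started below the expressed level in proliferating cells. Each share divides by a difference that holds the control differentiating array, so these shares are not independent of each other. For the dim Ckmt2 the share was 46.5% as deposited but 5.27% when values below the 25th percentile of an array were set to that percentile. As a background, 238 genes were expressed in both comparisons and had a mean differentiation difference of at least 1. Over these the median share was 75.4%, with quartiles of 55.4% and 95.7%, and 43 of them (18.1%) were at or below 50%. Pygm, Ckm and Pfkm are among the 238, and all 3 lay below the lower quartile.

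**Figure D2:**
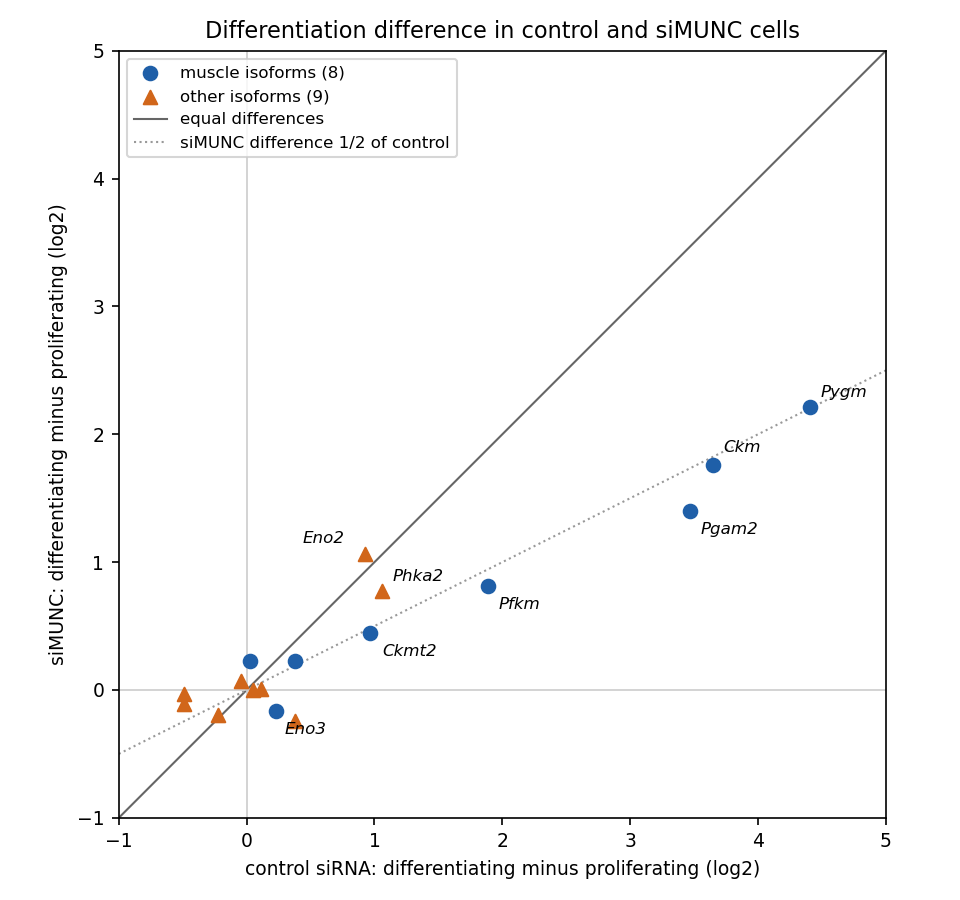
Differentiating minus proliferating (log2) in control cells on the x axis and in siMUNC cells on the y axis, with circles for the 8 muscle isoforms and triangles for 9 other isoforms of the same enzymes. On the dotted line the siMUNC difference is 50% of the control difference. Ckm and Pygm lie near it, Pgam2 and Pfkm somewhat below it, and Ckmt2 lies near it from dim values. Eno2 lies near the solid line of equal differences, and Phka2 lies between the lines, at 72.8% of its control difference.

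The difference of the differentiation effects, siMUNC minus control, uses all 4 arrays. Past 2-fold lower were 4 of 8 genes, Pygm (-2.19), Pgam2 (-2.07), Ckm (-1.88) and Pfkm (-1.07), against 1.78% of the 7968 expressed genes and 1.70% of all genes. The values of the other genes were -0.52 for Ckmt2, -0.40 for Eno3, -0.15 for Phka1 and 0.20 for Phkg1. The median of the 8 genes was -0.79, against 0.06 over expressed genes. Pygm was the 21st and Pgam2 the 31st lowest of the expressed genes. This difference shares its arrays with each of the other comparisons and adds no separate evidence to them.

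The comparison of siMUNC with the control siRNA was made in each state. In proliferating cells none of the 8 genes was past 2-fold in either direction, where 0.397% of the 7564 expressed genes and 0.585% of all genes were. The differences ran from -0.21 for Phka1 to 0.25 for Ckm, with 4 genes above 0 and 4 below. The 3 muscle isoforms expressed in that comparison were Eno3 (0.14), Pfkm (-0.01) and Phka1 (-0.21). The sign of Pfkm turned to 0.056 when arrays were centred, to 0.036 under quantile normalization and to 0.012 under cyclic loess. The dim Phkg1 turned to -0.058 under cyclic loess, and the dim Ckmt2 to 0.049 when values below the 25th percentile of an array were set to that percentile.

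In differentiating cells 4 of the 8 genes were past 2-fold lower with siMUNC and none was past 2-fold higher. The share past 2-fold lower was 2.29% of the 7635 expressed genes and 1.44% of all genes. Pygm was 4.81-fold lower, Pgam2 3.83-fold, Ckm 3.10-fold and Pfkm 2.11-fold. In rank these were the 21st, 31st, 63rd and 149th lowest expressed genes. Ckmt2 was 1.58-fold lower from dim values, Phka1 1.29-fold and Eno3 1.19-fold, while Phkg1 was 1.15-fold higher from dim values. The median over the 8 genes was -0.87, against 0.03 over expressed genes. This comparison shares the control differentiating array with the differentiation comparison in control cells, so a value that is high on that array alone would enter both.

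**Figure D3:**
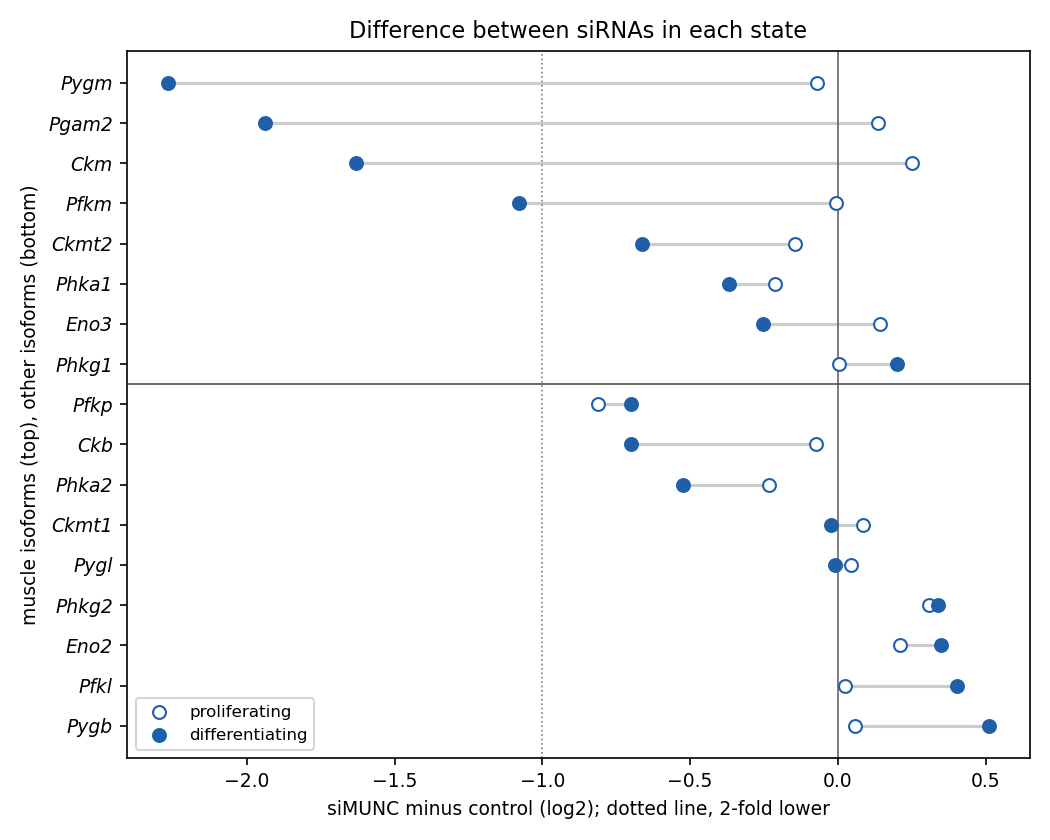
siMUNC minus control (log2) in proliferating cells (open circles) and differentiating cells (filled circles) for the 8 muscle isoforms (top) and 9 other isoforms (bottom), with a dotted line at 2-fold lower. Pygm, Pgam2, Ckm and Pfkm lie left of the dotted line in differentiating cells, and no other isoform does so in either state.

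Beside the muscle isoforms stand isoforms of the same enzymes that other tissues use, of which 9 of 11 were read. Eno1 and Pgam1, the widely expressed enolase and mutase, were not analysed here. In control cells Phka2, the liver alpha subunit of phosphorylase kinase, was past 2-fold higher on differentiation (2.09-fold), and the median over the 9 was 0.05. In siMUNC cells Eno2, the neuronal enolase, was past 2-fold higher (2.09-fold, against 1.90-fold in control cells). With siMUNC in differentiating cells none of the 9 was past 2-fold, and their median was -0.01. The farthest were Pfkp, the platelet phosphofructokinase (-0.70), Ckb, the brain creatine kinase (-0.70), Phka2 (-0.52) and Pygb, the brain phosphorylase (0.51). Pfkp was also lower with siMUNC in proliferating cells (-0.81), reading 10.95 and 10.13 with the control siRNA and siMUNC there and 10.90 and 10.20 in differentiating cells. It separated the siRNAs in both states and the states hardly at all.

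The balance within an enzyme was followed as the change of muscle minus other isoform between arrays, over 9 pairs. On differentiation of control cells 5 pairs moved past 2-fold toward the muscle isoform and none toward the other. These are the pairs of Pygm, Ckm and Pfkm, and Pygm and Pfkm each stand in more than 1 of them. All 3 genes were past 2-fold higher by themselves, so the count of pairs is not separate from theirs. The share over other pairs of genes was not counted. Pygm gained 29.8-fold on Pygb and 20.5-fold on Pygl, the dim liver phosphorylase, in control cells. In siMUNC cells the gains were 4.75-fold and 4.64-fold. Ckm gained 9.60-fold on Ckb in control and 4.02-fold in siMUNC cells. Ckb itself read 11.20, 11.13, 11.58 and 10.89 in the stated order, so most of that shift was the change in Ckm. Pfkm gained 5.19-fold on Pfkl, the liver phosphofructokinase, and 3.81-fold on Pfkp in control cells, and 1.90-fold and 1.68-fold in siMUNC cells. The phosphorylase kinase and enolase pairs moved the other way or little. Phka1 lost 1.61-fold to Phka2 in control and 1.46-fold in siMUNC cells, and Eno3 lost 1.62-fold and 2.34-fold to Eno2. The last was the 1 pair past 2-fold toward the other isoform in siMUNC cells, where 3 pairs were past 2-fold toward the muscle isoform. Ckmt2 and Ckmt1 (1.80-fold toward Ckmt2 in control cells) rest on dim values, as does Phkg1 beside Phkg2. In proliferating cells siMUNC moved no pair past 2-fold, and the farthest was Pfkm beside Pfkp (1.74-fold toward Pfkm). In differentiating cells 3 pairs were past 2-fold toward the other isoform with siMUNC, Pygm beside Pygb (6.85-fold), Pygm beside Pygl (4.77-fold) and Pfkm beside Pfkl (2.79-fold), and Ckm beside Ckb stood at 1.91-fold.

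The wider pathways were read from 3 lists. Of 12 glycogen metabolism genes read out of 19, 3 were past 2-fold higher on differentiation of control cells, Ppp1r3a, Gys1 and Phkb, and none in siMUNC cells, with medians of 0.67 and 0.17. Ppp1r3a, the muscle subunit that brings protein phosphatase 1 to glycogen, read 4.42, 4.23, 6.62 and 4.85 in the stated order. It was dim throughout. Gys1, the muscle glycogen synthase, read 10.48, 10.32, 11.59 and 10.50 in the stated order. It was 2.16-fold higher on differentiation in control cells and 1.14-fold in siMUNC cells. Phkb, the beta subunit shared by phosphorylase kinases, was 2.08-fold and 1.55-fold higher. With siMUNC in differentiating cells 11 of the 12 were below 0 (median -0.26), and Gys1 (2.12-fold) and Ppp1r3a (3.39-fold) were past 2-fold lower. Below 0 were 3430 of the 7635 expressed genes and 7127 of all 14860 genes. Of the 12 genes 7 were expressed in this comparison, and some differences were near 0, such as that of Epm2a (-0.05). Stbd1, a glycogen-binding protein, was at -0.95. The transcripts of Gys1, for glycogen synthesis, and Pygm, for its breakdown, thus both read highest in control differentiating cells. Enzyme activity and glycogen itself were not measured.

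The general enzymes of glycolysis and its transporters differed less. Of 18 read out of 23, Gpd1 (glycerol phosphate dehydrogenase, 2.36-fold) and Slc2a4 (the insulin-responsive glucose transporter, 2.15-fold) were past 2-fold higher on differentiation of control cells, both below the expressed level on all 4 arrays, and the list's median was 0.00. None was past 2-fold in siMUNC cells. With siMUNC in differentiating cells Gpd1 was past 2-fold lower (2.08-fold), and 9 genes were above 0 and 9 below. Aldoa, the muscle aldolase, read 13.52, 13.64, 13.75 and 13.52 in the stated order. Its small differences had the order of those of Eno3. Tpi1, triosephosphate isomerase, ran from 13.27 to 13.37. Slc2a1, the basal glucose transporter, was at -0.91 on differentiation of control cells and -0.43 in siMUNC cells.

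Of the 6 creatine and adenylate genes read out of 7, Gamt, which makes creatine, was past 2-fold higher on differentiation of control cells (2.36-fold), and it was 1.95-fold higher in siMUNC cells. Slc6a8, the creatine transporter, was at 0.18 and 0.09. Ak1, adenylate kinase of muscle, was at 0.83 and 0.21. None of the 6 was past 2-fold with siMUNC in either state.

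**Figure D4:**
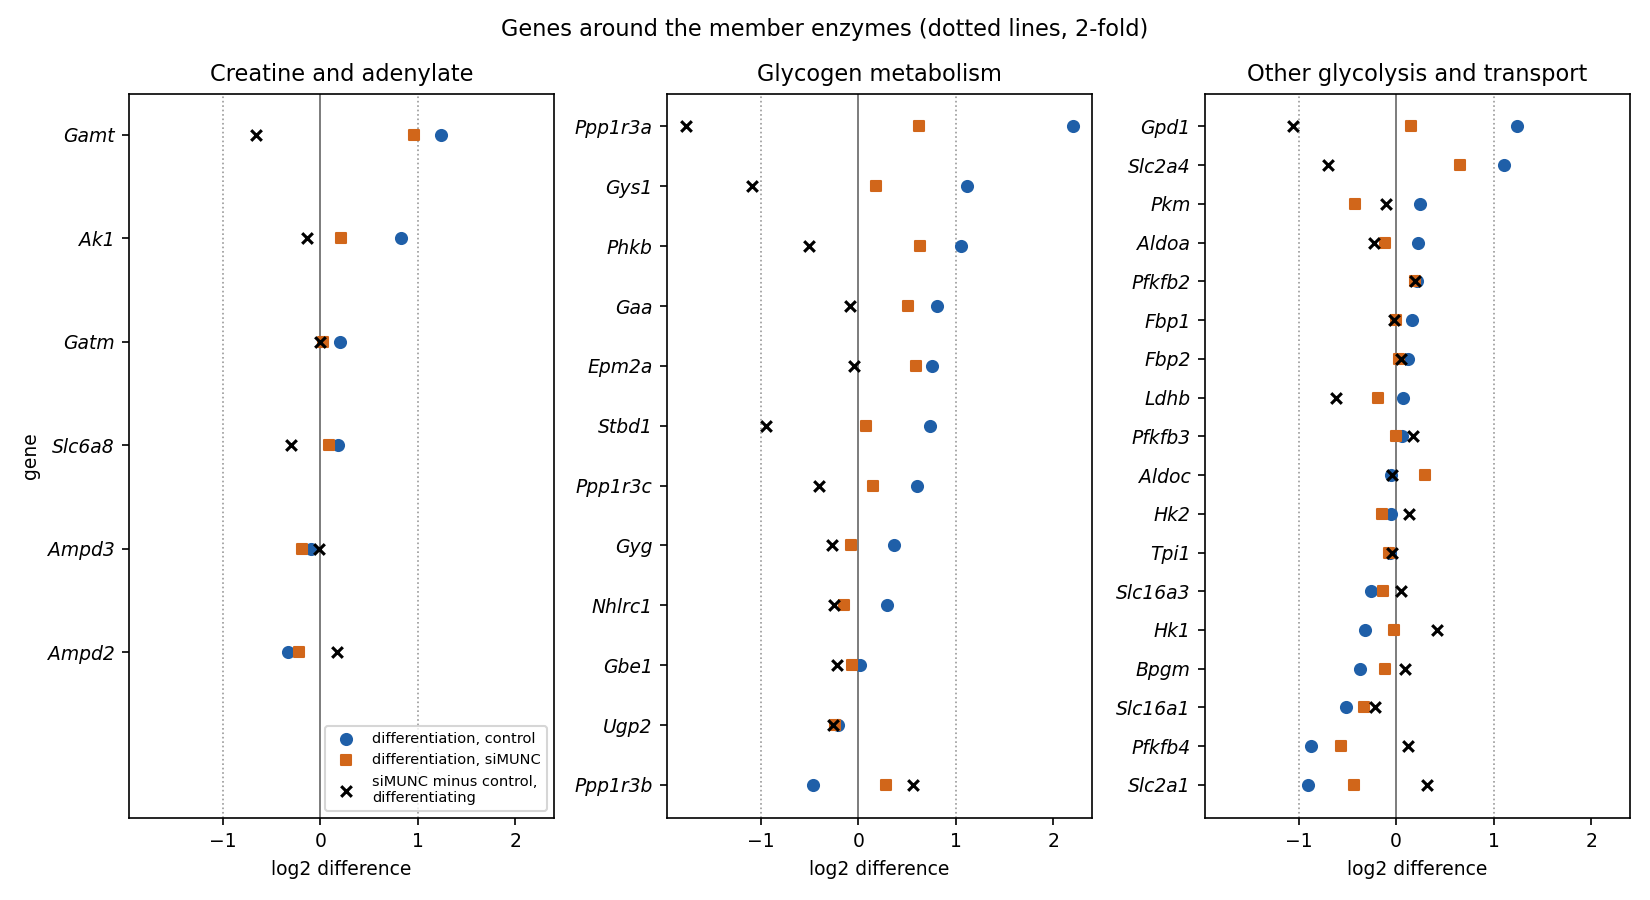
Log2 differences for differentiation in control cells (circles), differentiation in siMUNC cells (squares) and siMUNC minus control in differentiating cells (crosses), for 6 creatine and adenylate, 12 glycogen metabolism and 18 other glycolysis and transport genes, with dotted lines at 2-fold. Ppp1r3a, Gys1 and Gpd1 are past 2-fold higher on differentiation of control cells and past 2-fold lower with siMUNC.

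Factors known to act on such promoters were read beside the enzymes. Of 11 regulators read out of 12, Myog and Mef2c were past 2-fold higher on differentiation of control cells, and these and Myf6 (2.73-fold, dim) in siMUNC cells. With siMUNC in differentiating cells Mef2c, Myog, Tead4 (2.10-fold) and Myod1 (2.06-fold) were past 2-fold lower, and the median of the 11 was -0.63. Above 0 in that comparison were 3 of the 11, Myf5 (0.62), Hif1a (0.25) and the dim Myf6 (0.21). Mef2c, a MEF2 factor, read 8.23 and 7.24 with the control siRNA and siMUNC in proliferating cells, and 10.93 and 8.88 in differentiating cells. Myog (myogenin) read 8.43, 7.45, 12.21 and 10.56 in the stated order. Both read lower with siMUNC in proliferating cells, by 0.99 and 0.98 on the log2 scale, but below the expressed level on both of those arrays. Myod1 read 11.46 and 10.96 there, and 11.75 and 10.70 in differentiating cells. On differentiation the log2 difference of Myog in siMUNC cells was 82.5% of that in control cells, that of Mef2c 60.9%, that of Mef2d 39.3%, that of Mef2a 96.6% and that of Tead4 5.68%. Whether these factors take part in the differences of the enzymes was not tested.

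The genes whose pattern over the 4 arrays was most like that of the 8 enzymes were found by the distance between profiles after each gene's own mean was subtracted, among 7962 expressed genes. Nearest to the mean profile of the 8 were Prkaa2, a catalytic subunit of the energy sensor AMPK (distance 0.127), Rab40b (0.141) and Acsl6, a long-chain acyl-CoA synthetase (0.149). Nearest to Pgam2 was Ankrd23 (0.050), to Ckm Ablim3 (0.104), to Pygm Myom1, a myomesin of the sarcomeric M-band (0.138), and to Pfkm Ryr3, a ryanodine receptor (0.114). Nearest to Eno3 were Ndufb2 (0.019), a subunit of respiratory complex I, Psmd8 (0.021), a proteasome subunit, and Aldoa (0.032). Among the enzymes themselves, Ckm and Pgam2 were 0.357 apart and Pygm and Phkg1, the farthest pair, 3.63. With 4 arrays, many genes have nearly the same profile, so a small distance is a description.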

How the data were processed

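Values came from 1 table with 4 columns, 1 array each, of biotin-labelled total RNA on an Affymetrix platform. Per the submitters' processing notes, the authors used Affymetrix Expression Console. Which version, background correction, normalization and genome build they used is not given in the sources available. The deposited table was read as log2: its values span 2.56 to 14.32, and natural logs of 16-bit intensities end at 11.1. Of 23332 clusters, 14996 had 1 gene symbol in the platform annotation, 1019 had several and 7317 had none. A gene with several clusters was represented by the one with the highest mean.

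A comparison is a difference of log2 values between arrays. Differences were counted past 2-fold, and there is no test. The counting was tested on simulated data. Alternatives were median centring, quantile and cyclic loess normalization (limma 3.58.1, R 4.3.3), an offset of 50, a floor at the 25th percentile, no filter, the mean over clusters, and other folds. The named genes were the 8 members, their other isoforms, genes past 2-fold in the pathway and regulator lists, up to 4 others of each list, and the nearest profiles. The members and lists were chosen with earlier results of these data known.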

Additional observations from a re-analysis of the deposited data

Results flagged for a closer look

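Of the 8 enzymes, 3 had effects of opposite sign in the 2 settings of the other factor, a difference that was not tested. The share of all genes with opposite signs was not counted, so 3 of 8 cannot be read as a trait of these enzymes. With siMUNC 8445 of 14860 genes were above 0 in proliferating cells and 7724 in differentiating cells. Ckm was at 0.25 with siMUNC in proliferating cells and at -1.63 in differentiating cells, and Pgam2 at 0.13 and -1.94. Eno3 was at 0.14 and -0.25, and its differentiation difference was 0.23 in control and -0.16 in siMUNC cells. Of these values those of Ckm and Pgam2 in differentiating cells were past 2-fold. Their values in proliferating cells were small and came from readings below the expressed level.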

How the results depend on the processing

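No paired analysis was possible because each group has 1 array. With no replicates, a single value was taken to be stable when it kept its sign and its side of 2-fold and moved by less than 1.5 times, and a percentage when it moved by less than 10 points. The counts of the 8 enzymes past 2-fold stayed within 1.5 times in all 5 comparisons under the 3 scalings, the offset of 50, the floor and the mean over clusters. At 4-fold, 1 enzyme was higher on differentiation in siMUNC cells, 1 lower with siMUNC in differentiating cells and 2 lower in the difference of effects. Pygm, Ckm, Pgam2 and Pfkm kept their direction and side of 2-fold in both differentiation comparisons and with siMUNC in differentiating cells. Pygm ran from -2.29 to -2.21 in the last, and Pfkm, the nearest to 2-fold, from -1.11 to -1.05. Ckmt2 on differentiation of control cells passed 2-fold when arrays were centred (1.00454 on the log2 scale) and was 0.27 with the floor. The median of the 8 enzymes for siMUNC in proliferating cells, near 0 as deposited, was 0.061 with centring, 0.013 with quantile normalization and 0.049 with the floor. The median share of the control difference over the background genes ran from 71.2% to 75.4%. In proliferating cells the expressed genes past 2-fold lower with siMUNC, 23 as deposited, were 13 with the offset, and without a filter on level 35 genes were higher and 52 lower. Without that filter, genes past 2-fold lower in the difference of effects numbered 252, against 142. No called value changed sign. Ckmt2 and Phkg1 read below the expressed level on all arrays, Pgam2 on 3 of 4, and Ckm and Pygm on both proliferating arrays. The folds of these on differentiation thus rest on dim values, and background itself was not measured. On differentiation of control cells the log2 difference ran from 3.40 to 3.72 for Ckm and from 4.14 to 4.49 for Pygm over the alternatives.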
